A study of Mus musculus with 12 samples.

Results

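Small nucleolar RNA genes were followed across the hypothalamus of obese mice treated with withaferin A, celastrol or the vehicle DMSO. The genes were chosen by symbol, as those whose mouse symbol begins with Snord or Snora and a number. They came from probe sets of a microarray that carry 1 gene symbol, with the probe set of highest mean kept for each gene. This gave 51 genes of 19938 with a value, and no gene was removed for being dim. They were 31 C/D box genes (Snord) and 20 H/ACA box genes (Snora). Gene Snord73b was known from these arrays to be lower after withaferin A, so the withaferin A values are given below as a description, and the calls of the fit in those comparisons support nothing. The comparison of celastrol with DMSO was tested.

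Small nucleolar RNAs are short non-coding RNAs that work in the nucleolus as guides. The C/D box kind directs methylation of the ribose in ribosomal and spliceosomal RNA with the enzyme fibrillarin, and the H/ACA box kind directs conversion of uridine to pseudouridine with the enzyme dyskerin. A few, such as U8 (Snord118), U22 (Snord22), U14 (Snord14) and U17 (Snora73), are needed for cutting the ribosomal RNA precursor. In mammals most are carved out of the introns of host genes, many of which code for ribosomal proteins or are themselves non-coding, so that one transcript can give both a spliced RNA and a guide RNA. In mouse cells, small nucleolar RNAs from the introns of Rpl13a are known to take part in the response to lipid overload.

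The mice were C57BL/6J males, put on a diet of 45% fat at 3 weeks of age. They stayed on it for 20 weeks and had reached an age of 23 weeks. All received DMSO by intraperitoneal injection daily for 4 days. For a further 4 days they then received withaferin A at 2 mg/kg, celastrol at 100 µg/kg or DMSO. Withaferin A and celastrol are plant compounds known to make obese mice eat less and lose weight. Total RNA of the hypothalamus was hybridised to 12 one-colour arrays, 4 per group, which the labels call biological replicates. No mice on a lean diet are part of the comparison, so all groups share the diet and the vehicle days.

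Values are deposited log2 signals, on which a difference of 1 is a doubling. A signal can come from the mature guide RNA or from the unspliced intron that holds it, and the array does not separate these. The medians of the arrays ran from 6.89 to 6.98, and arrays correlated with each other at 0.981 to 0.994. Of 12 markers of the hypothalamus, 11 were measured, and all 11 had means above the 25th percentile of gene means, the lowest being Lhx9 at 7.36. The mean of these 11 markers, relative to the DMSO mean, was -0.15 to -0.09 with withaferin A, -0.25 to -0.08 with celastrol and -0.03 to 0.04 with DMSO. Pituitary markers, of which 7 of 8 were measured, lay on the same scale at -0.0043 to 0.39 with withaferin A, 0.33 to 2.02 with celastrol and -0.20 to 0.17 with DMSO. The value of 2.02 belongs to celastrol 2, which had signals of 10.96 for growth hormone (Gh) and 9.80 for prolactin (Prl). Thalamus markers, 9 of 9 measured, lay at -0.23 to 0.61 with withaferin A, -0.09 to 0.79 with celastrol and -0.42 to 0.58 with DMSO. The part of these markers in any result below was not tested. In RNA from a whole tissue, fewer cells of a type and less RNA per cell cannot be told apart.

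The 51 genes are short, from 45 to 205 nucleotides with a median of 91, by the RefSeq gene table of assembly GRCm38.p6. The C/D box genes had a median of 68 nucleotides and the H/ACA box genes one of 125. By the same annotation 50 of the 51 lie inside another gene, taken here as the host, while Snord118 does not. The gene table gives no strand, so the strand of a host relative to its guide was not checked. There were 40 hosts. Ribosomal protein genes held 21 of the small nucleolar RNA genes, non-coding genes held 13 and other protein-coding genes held 16. A group of 10 hosts held 2 of them each, among them Ncl (nucleolin), Rack1, Rpl13a, Rpl23a, Rps3, Rps3a1, Snhg3, Snhg12 and 2410006H16Rik. The same table classes Snord73b as a small nuclear RNA and the other genes as small nucleolar RNAs.

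The starts of some hosts are shown because hosts of small nucleolar RNAs are known for the terminal oligopyrimidine tract, a run of C and T at the start of the transcript. They are hosts of the genes whose withaferin A arrays all lay below all DMSO arrays. The windows come from the RefSeq promoter table (GRCm38.p6), and hosts of other genes described below were not looked up. Each stretch runs from 20 bases before to 20 after the annotated start, on the strand of the gene. Capitals mark CTTTC on the strand of the gene, or GAAAG, which is CTTTC on the opposite strand. The capitals do not by themselves show the tract. In Rps3a1 the marked GAAAG holds no C or T, so it is no part of such a run in the transcript. In Rpl13a the marked CTTTC begins downstream of the annotated start and not at it. In 2410006H16Rik the marked CTTTC begins upstream of the annotated start and ends at it, so most of it lies outside the annotated transcript. The motif was chosen after the sequences were seen.
Rps3a1, holding Snord73b and Snord73a, chr3:86142649-86142688, minus strand: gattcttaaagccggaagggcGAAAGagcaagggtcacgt
Gas5, holding Snord47, first annotated start, chr1:161034581-161034620, plus strand: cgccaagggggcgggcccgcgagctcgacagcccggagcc
Gas5, second annotated start, chr1:161035146-161035185, plus strand: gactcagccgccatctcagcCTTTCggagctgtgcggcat
2410006H16Rik, holding Snord49b and Snord49a, chr11:62602857-62602896, plus strand: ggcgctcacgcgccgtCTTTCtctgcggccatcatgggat
Rpl13a, holding Snord35a and Snord33, chr7:45128726-45128765, minus strand: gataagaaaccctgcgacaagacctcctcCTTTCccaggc
Rplp2, holding Snora52, chr7:141447631-141447670, plus strand: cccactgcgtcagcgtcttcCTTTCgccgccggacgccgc
Of 32851 windows of the same 40 bases in the table, 5.49% held CTTTC on the gene's strand, 4.86% held GAAAG and 10.2% held either. These matches are a description of letters and say nothing about binding or use of the start.

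The mean signals of the 51 genes ran from 3.77 for Snord58b to 12.06 for Snord57. Probes bind with different strength, so these are signals of probe sets and not amounts of RNA that can be ranked between genes. The median gene mean was 6.89, against 7.49 over all genes. It was 6.69 for the C/D box genes and 7.30 for the H/ACA box genes. Of the 51, 38 (74.5%) had a mean above the 25th percentile of gene means, which was 5.81. These were 21 of 31 C/D box genes and 17 of 20 H/ACA box genes. The genes next to that threshold were Snord22 at 5.63 and Snord96a at 5.61 below it, and Snord15a at 6.09 and Snord118 at 6.14 above it. A total of 21 genes lay above the median of all genes.

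**Figure D1:**
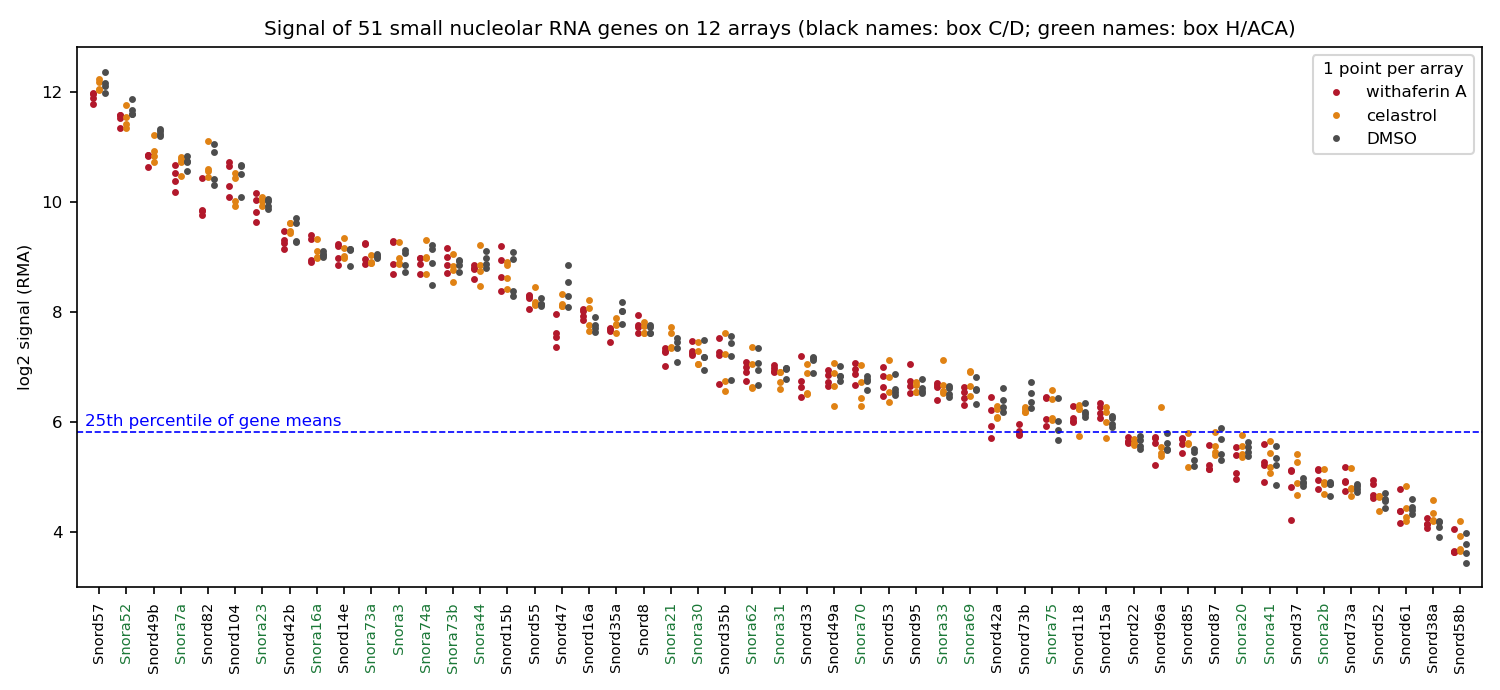
Log2 signal (y axis) of the 51 small nucleolar RNA genes (x axis, ordered by mean signal, C/D box names black and H/ACA box names green) on each array, with 1 point per array coloured by group and a dashed line at the 25th percentile of gene means (5.81). The means of 38 genes lie above the line, led by Snord57 at 12.06, and those of 13 below it.

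The C/D box genes with the highest signals were Snord57, Snord49b, Snord82, Snord104 and Snord42b. The H/ACA box genes with the highest signals were Snora52, Snora7a, Snora23, Snora16a and Snora73a. Snord57 lies in Nop56, which codes for a core protein of the C/D particle, and Snora52 lies in Rplp2, which codes for an acidic ribosomal stalk protein. Snord49b lies in the non-coding gene 2410006H16Rik, and Snord82 lies in Ncl, which codes for the nucleolar protein nucleolin. Several of the 51 belong to families of near copies (Snora73a and Snora73b, Snord15a and Snord15b, Snord14e and its relatives), and whether their probes cross-hybridise was not tested. A set of 5 genes had more than 1 probe set. Those of Snora30 and of Snord118 held identical values, the 2 probe sets of Snora3 averaged 8.99 and 8.93, those of Snora21 averaged 7.36 and 7.04, and those of Snord58b averaged 3.77 and 3.70.

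Withaferin A and DMSO arrays differed most for a few C/D box genes, all lower with withaferin A: Snord47, Snord82, Snord73b, Snord49b and Snord35a. Their signals were 1.77-fold, 1.62-fold, 1.55-fold, 1.38-fold and 1.29-fold lower with withaferin A. They belong to the methylation guides by class, and their hosts are Gas5, Ncl, Rps3a1, 2410006H16Rik and Rpl13a. The other small nucleolar RNA genes differed less, and the median difference over all 51 was -0.02. At an adjusted p under 0.05 (limma), 0 of 51 passed in withaferin A versus DMSO, beside 0% of all genes. In celastrol versus DMSO 0 of 51 passed as well, beside 0.301% of all genes.

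Snord73b had signals of 5.78, 5.84, 5.95 and 5.77 on the withaferin A arrays, 6.18, 6.19, 6.24 and 6.27 on the celastrol arrays and 6.72, 6.36, 6.26 and 6.53 on the DMSO arrays. All 4 withaferin A arrays lay below all 8 others, while celastrol and DMSO arrays overlapped by a narrow margin. The group means were 5.83 ± 0.085 with withaferin A, 6.22 ± 0.0455 with celastrol and 6.47 ± 0.203 with DMSO (SD, n = 4 each). The difference was -0.63 ± 0.09 for withaferin A minus DMSO and -0.38 ± 0.09 for withaferin A minus celastrol, as log2 differences with the SE of the fit. On the withaferin A arrays this gene sat near the 25th percentile of all gene means, and its mean over 12 arrays was 6.17. The gene was chosen for this pattern, so its values are a description.

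Snord73a lies in the same host, Rps3a1, which codes for a protein of the small ribosomal subunit. Its signals were 5.18, 4.91, 4.74 and 4.92 with withaferin A, 5.16, 4.78, 4.80 and 4.65 with celastrol and 4.73, 4.78, 4.87 and 4.84 with DMSO. The groups overlapped, and the withaferin A minus DMSO difference was 0.14 ± 0.11, the opposite sign to Snord73b. Snord73a is below the 25th percentile of gene means. The host itself lay between 7.84 and 8.03 with withaferin A, between 7.69 and 8.26 with celastrol and between 7.77 and 8.21 with DMSO. Its difference was -0.04 ± 0.12 for withaferin A minus DMSO, so the arrays of Rps3a1 overlapped where those of Snord73b did not.

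Snord47 had the largest difference of the 51 between withaferin A and DMSO. Its signals were 7.96, 7.62, 7.55 and 7.35 with withaferin A, 8.14, 8.32, 8.11 and 8.10 with celastrol and 8.86, 8.29, 8.09 and 8.54 with DMSO. The withaferin A arrays again lay below all 8 others, and the DMSO arrays were the most scattered. The difference was -0.83 ± 0.15 for withaferin A minus DMSO and -0.55 ± 0.15 for withaferin A minus celastrol. Its host Gas5, a non-coding gene named for its rise in growth-arrested cells, holds several small nucleolar RNAs in its introns. The host had 9.28, 9.46, 9.29 and 9.28 with withaferin A, 9.55, 9.37, 9.39 and 9.36 with celastrol and 9.55, 9.40, 9.49 and 9.40 with DMSO. Its difference from DMSO was -0.13 ± 0.07 with withaferin A.

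Snord82 had 10.44, 9.86, 9.84 and 9.75 with withaferin A, 10.59, 11.10, 10.56 and 10.45 with celastrol and 11.04, 10.41, 10.31 and 10.90 with DMSO. Withaferin A 1 lay above the other withaferin A arrays and above 2 of the DMSO arrays, and the remaining 3 lay below all DMSO arrays. The difference was -0.69 ± 0.19 for withaferin A minus DMSO and -0.70 ± 0.19 for withaferin A minus celastrol. For withaferin A minus DMSO it was -0.85 without withaferin A 1 and -0.57 without DMSO 1. Its host Ncl had 10.16, 10.01, 10.30 and 9.95 with withaferin A, 10.26, 10.49, 10.23 and 10.39 with celastrol and 10.57, 10.31, 10.04 and 10.45 with DMSO. These groups overlapped, and Ncl differed by -0.24 ± 0.11 for withaferin A minus DMSO. Snora75, an H/ACA box gene in the same host, had 5.92, 6.45, 6.05 and 6.44 with withaferin A, 6.06, 6.03, 6.41 and 6.58 with celastrol and 6.01, 5.68, 6.43 and 5.86 with DMSO. Its difference had the opposite sign, at 0.22 ± 0.17 for withaferin A minus DMSO, and its groups overlapped.

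**Figure D2:**
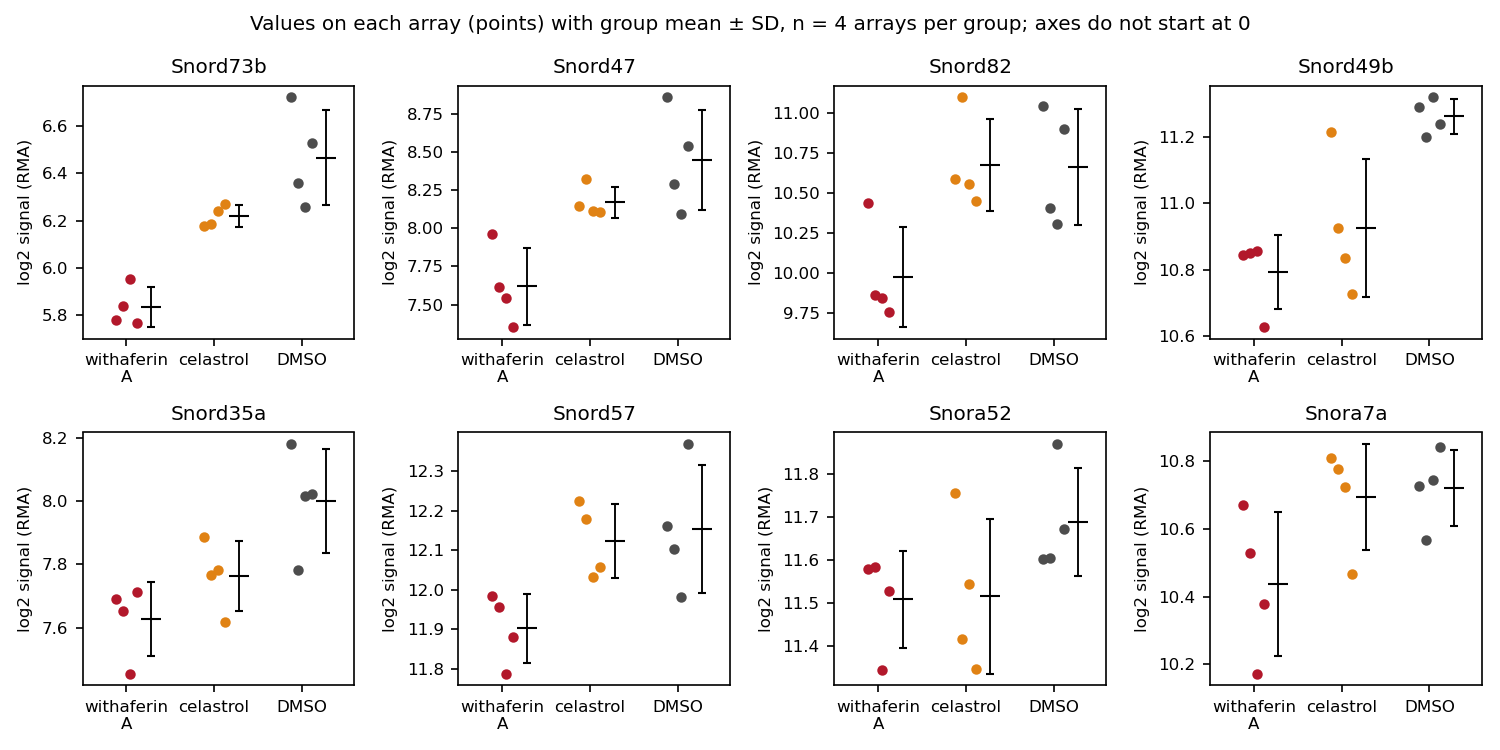
Log2 signal on each array (points, 4 per group) with group mean and SD for 8 small nucleolar RNA genes under withaferin A, celastrol and DMSO. For Snord73b and Snord47 every withaferin A array lies below every array of the other groups, while for Snord82 withaferin A 1 at 10.44 stands above the other withaferin A arrays.

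On average Snord49b was lower than with DMSO after both compounds, which are compared with the same 4 DMSO arrays. In neither comparison did it pass at an adjusted p under 0.05 (limma). It had 10.84, 10.85, 10.86 and 10.63 with withaferin A, 11.21, 10.93, 10.84 and 10.73 with celastrol and 11.29, 11.20, 11.32 and 11.24 with DMSO. The withaferin A arrays lay below all DMSO arrays, and celastrol 1 alone among the celastrol arrays reached the DMSO range. The difference was -0.47 ± 0.09 for withaferin A minus DMSO and -0.13 for withaferin A minus celastrol. Snord49a, in the same host 2410006H16Rik, had 6.94, 6.85, 6.73 and 6.66 with withaferin A, 6.89, 6.64, 7.06 and 6.29 with celastrol and 6.84, 6.75, 7.02 and 6.84 with DMSO, with overlap between all groups.

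Rpl13a, a gene for a protein of the large ribosomal subunit, holds Snord33 and Snord35a. Snord35a was named after its values were seen. It had 7.69, 7.65, 7.45 and 7.71 with withaferin A, 7.89, 7.77, 7.78 and 7.62 with celastrol and 8.18, 7.78, 8.02 and 8.02 with DMSO. The withaferin A arrays lay below all DMSO arrays and overlapped the celastrol arrays, with differences of -0.37 ± 0.09 for withaferin A minus DMSO and -0.14 for withaferin A minus celastrol. Snord33 had 7.19, 6.45, 6.64 and 6.75 with withaferin A, 7.05, 6.52, 6.89 and 6.51 with celastrol and 7.12, 6.89, 7.17 and 7.16 with DMSO. For Snord33, withaferin A 1 was the highest of all 12 arrays and the other 3 lay below all DMSO arrays. The difference of -0.33 ± 0.15 for withaferin A minus DMSO went to -0.47 without withaferin A 1 and to -0.23 without withaferin A 2.

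Among the genes of highest signal, Snord57 had 11.98, 11.96, 11.79 and 11.88 with withaferin A, 12.23, 12.18, 12.03 and 12.06 with celastrol and 12.16, 12.10, 11.98 and 12.37 with DMSO. It was lower with withaferin A than on every celastrol array, and the lowest DMSO array reached the withaferin A range. The differences were -0.25 ± 0.08 for withaferin A minus DMSO and -0.22 for withaferin A minus celastrol. The host Nop56 differed by -0.02 ± 0.06 for withaferin A minus DMSO.

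Of the H/ACA box genes, Snora52 had 11.58, 11.58, 11.34 and 11.53 with withaferin A, 11.76, 11.42, 11.54 and 11.35 with celastrol and 11.60, 11.61, 11.87 and 11.67 with DMSO. The withaferin A arrays lay just below the DMSO arrays, a difference of -0.18 ± 0.09, while Rplp2, its host, differed by 0.12 ± 0.10. Snora7a had 10.67, 10.53, 10.17 and 10.38 with withaferin A, 10.81, 10.78, 10.72 and 10.47 with celastrol and 10.73, 10.57, 10.75 and 10.84 with DMSO, with overlap and a withaferin A minus DMSO difference of -0.28 ± 0.11. Snora21 had 7.35, 7.27, 7.28 and 7.01 with withaferin A, 7.73, 7.61, 7.36 and 7.35 with celastrol and 7.35, 7.10, 7.46 and 7.52 with DMSO. It lay below the celastrol arrays, with a mean difference of -0.28 ± 0.11, and overlapped the DMSO arrays. The highest withaferin A array, at 7.3456, and the lowest celastrol array, at 7.3467, were nearly level. On the other probe set of Snora21 these groups overlapped, with withaferin A 3 at 7.06 and celastrol 3 at 7.04.

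The differences were not shared by the 51 as a group. The median log2 difference for withaferin A minus DMSO was -0.02 over the 51 genes and 0.02 over all genes. With every probe set counted, those with several symbols included, it was -0.10. Of those probe sets 24 are of Snord116 and hold only 7 distinct sets of values. Over single genes it was -0.03 for the C/D box genes and 0.02 for the H/ACA box genes. By host it was -0.06 for the 21 genes in ribosomal protein genes, -0.04 for the 13 in non-coding genes and 0.0034 for the 16 in other protein-coding genes. On average 26 of the 51 were lower with withaferin A than with DMSO, beside 42.8% of all genes. The genes with the most positive differences among the brighter 38 were Snora75, Snord16a at 0.21, Snord15a at 0.20 and Snora70 at 0.16.

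At an adjusted p under 0.05 (limma, Benjamini-Hochberg over 19938 genes), 0 of 51 passed in withaferin A versus DMSO, where 0% of all genes did. At an unadjusted p under 0.05, 9 of 51 passed, 8 of them lower, beside 16% of all genes, with 6.41% of all genes passing as lower. The groups did not overlap, with withaferin A lower, for 5 of 51 genes (Snord73b, Snord47, Snord49b, Snord35a and Snora52), beside 3.57% of all genes. They did not overlap in the other direction for 0 of 51, beside 4.31% of all genes. In withaferin A versus celastrol 0 of 51 passed at an adjusted p under 0.05, beside 0.0552% of all genes, and 9 of 51 passed unadjusted, beside 14.7%. There the groups did not overlap, with withaferin A lower, for Snord73b, Snord47, Snord82, Snord57 and Snora21, that is 5 of 51, beside 4.18% of all genes, and with withaferin A higher for 0 of 51, beside 4.13%. Since the genes were chosen with Snord73b and its withaferin A values known, nothing is read from these counts or shares.

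**Figure D3:**
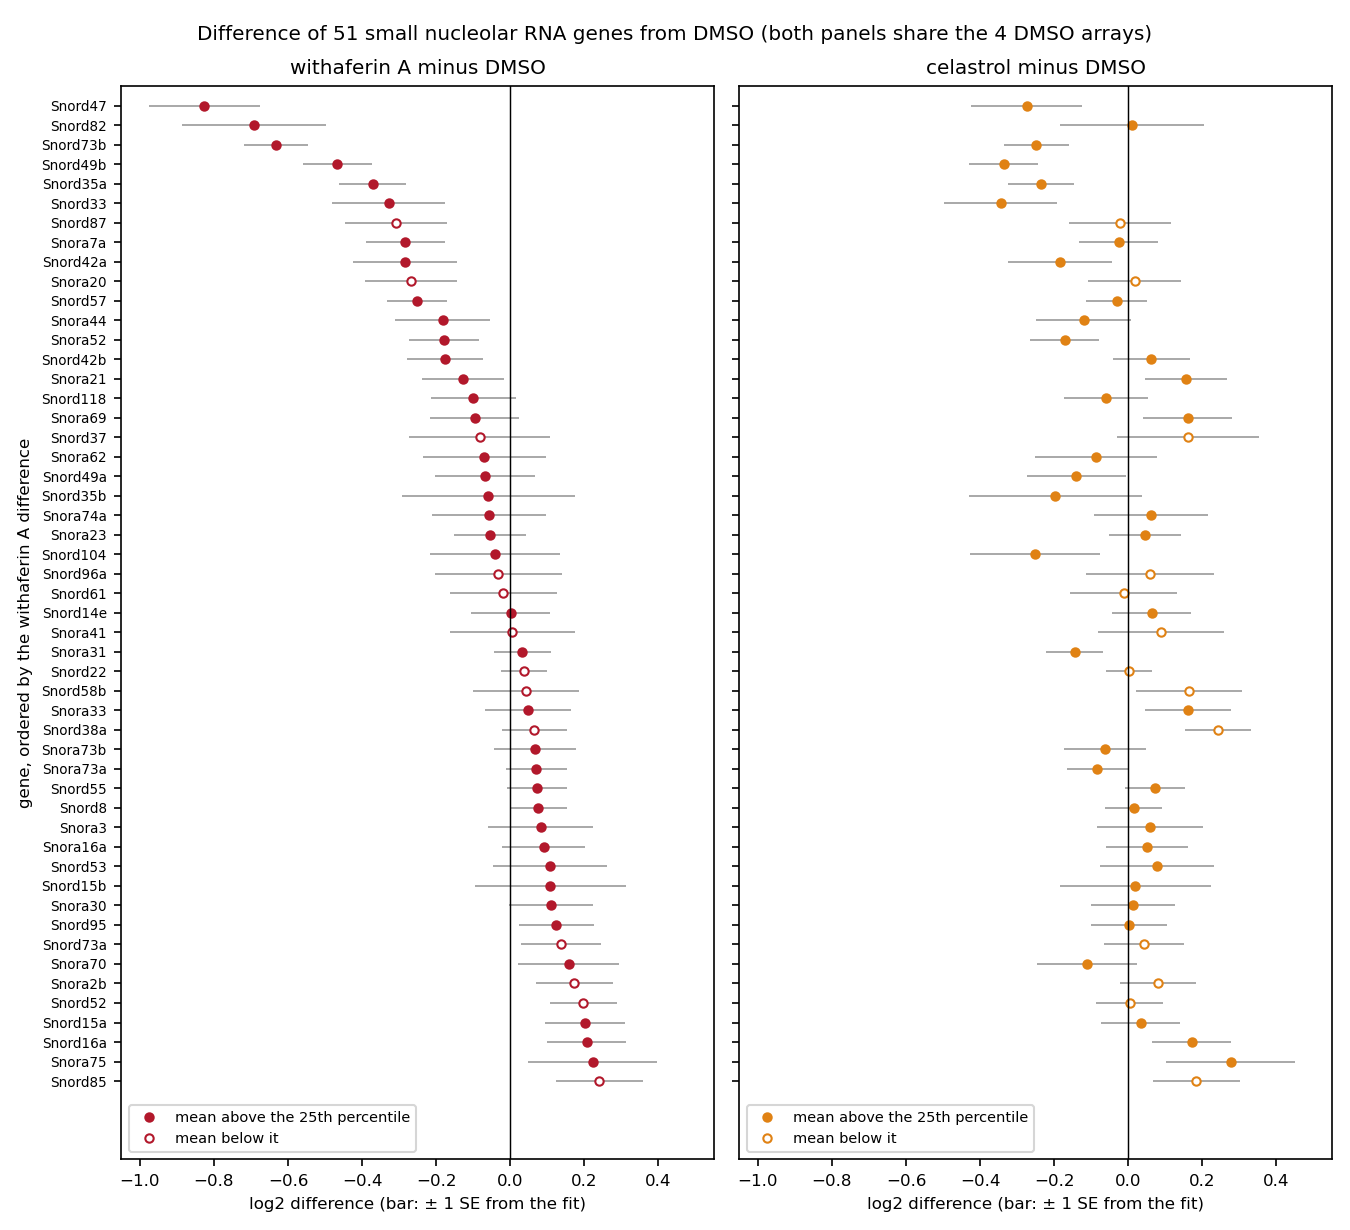
Log2 difference of each of the 51 small nucleolar RNA genes, with bars of 1 SE from the fit and open circles for genes below the 25th percentile of gene means, for withaferin A minus DMSO and celastrol minus DMSO. Snord47 at -0.83, Snord82 at -0.69 and Snord73b at -0.63 stand lowest for withaferin A, and the celastrol differences stay between -0.34 and 0.28.

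Celastrol was compared with DMSO to see whether the same class of RNA differed after the other compound. No small nucleolar RNA gene passed the threshold, and the differences were small, from -0.34 for Snord33 to 0.28 for Snora75. With limma and Benjamini-Hochberg adjustment over 19938 genes, 0 of 51 passed at an adjusted p under 0.05, beside 0.301% of all genes, which were 60 genes, 43 of them higher and 17 lower. At an unadjusted p under 0.05, 5 of 51 passed, beside 9.4% of all genes. Lower with celastrol were 4 of 51, beside 4.71% of all genes, namely Snord49b, Snord73b, Snord35a and Snord33. Higher with celastrol was 1 of 51, Snord38a, beside 4.68%. The median log2 difference was 0.01 over the 51 genes and -0.0048 over all genes, and 30 of the 51 were higher on average, beside 48.1% of all genes.

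The smallest adjusted p of the 51 was that of Snord49b, whose celastrol minus DMSO difference was -0.34 ± 0.09 (95% interval -0.54 to -0.14, adjusted p = 0.195, limma). It was lower than every DMSO array on 3 of 4 celastrol arrays. Without celastrol 1, Snord49b was the one small nucleolar RNA gene that passed, with a difference of -0.43 and an adjusted p of 0.04995 (limma), while its adjusted p ran up to 0.434 over the 22 alternatives that gave it a value. Snord73b differed by -0.25 ± 0.09 (interval -0.44 to -0.06, adjusted p = 0.337, limma), with 3 of 4 celastrol arrays below all DMSO arrays. Snord35a differed by -0.24 ± 0.09 (adjusted p = 0.387, limma) and Snord33 by -0.34 ± 0.15 (adjusted p = 0.503, limma). Snord47 differed by -0.27 ± 0.15, with an interval of -0.60 to 0.05 that includes 0 (adjusted p = 0.617, limma). Snord82, low on 3 withaferin A arrays, differed by 0.01 ± 0.19 after celastrol, with an interval of -0.41 to 0.43. An interval of that width does not show that celastrol left Snord82 as it was.

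Snord38a was named after its values were seen, as the gene of the 51 with celastrol arrays all above the DMSO arrays. It had 4.34, 4.21, 4.21 and 4.57 with celastrol and 4.08, 4.19, 4.17 and 3.91 with DMSO. The closest arrays of the 2 groups, celastrol 2 and DMSO 2, were nearly level, and the difference was 0.24 ± 0.09 (interval 0.05 to 0.43, adjusted p = 0.364, limma) at a signal below the 25th percentile of gene means. Celastrol and DMSO did not overlap, with celastrol higher, for this 1 of 51 genes, beside 2.8% of all genes, and with celastrol lower for 0 of 51, beside 3.53%. Of the other genes with the largest differences, Snora75 had 0.28 ± 0.17 (adjusted p = 0.689, limma), Snord16a 0.17 (0.687), Snora33 0.16 (0.747), Snora69 0.16 (0.759) and Snord104 -0.25 ± 0.18 (0.734). Both comparisons with DMSO use the same 4 DMSO arrays, so a low or high DMSO array moves a gene the same way in both.

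Small nucleolar RNA genes varied more between arrays of a group than most genes did. Their within-group SD had a median of 0.181, beside 0.121 over all genes. It was above the median of all genes for 45 of 51 and above the 75th percentile of all genes, 0.163, for 35 of 51. Among genes above the 25th percentile of gene means the medians were 0.178 for the small nucleolar RNA genes and 0.107 for all genes. The lowest SD was 0.0723 for Snord22 and the highest 0.393 for Snord35b, whose signals spread over more than 1 log2 unit on celastrol arrays. Snord35b had 7.52, 7.27, 6.70 and 7.22 with withaferin A, 7.61, 6.75, 7.23 and 6.57 with celastrol and 7.20, 6.77, 7.55 and 7.43 with DMSO.

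On some arrays many of the genes deviated in the same direction. On celastrol 1, 43 of the 51 genes lay above their own mean over 12 arrays, beside 59.4% of all genes, with a median deviation of 0.16. On DMSO 3, 38 of 51 did, beside 56.3% of all genes, with a median deviation of 0.06. On withaferin A 3, 13 of 51 did, beside 52.5% of all genes, and on DMSO 2, 13 of 51 did, beside 46.4%. The withaferin A arrays ran at 32, 30, 13 and 18 genes above their own mean, the celastrol arrays at 43, 17, 25 and 21 and the DMSO arrays at 25, 13, 38 and 31, so the groups overlapped. Celastrol 2, the array with the pituitary signal, had 17 of 51 above, beside 38% of all genes, and a median deviation of -0.07, beside -0.03 over all genes. With that array and withaferin A 1 left out together, 0 of 51 passed at an adjusted p under 0.05 (limma) in each comparison. Over the 11 alternatives that include this fit, 5 to 167 of all genes passed in celastrol versus DMSO. The ranges were 0 to 30 for withaferin A versus DMSO and 0 to 47 for withaferin A versus celastrol. Fewer arrays make it harder to pass, so nothing is read from this count.

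**Figure D4:**
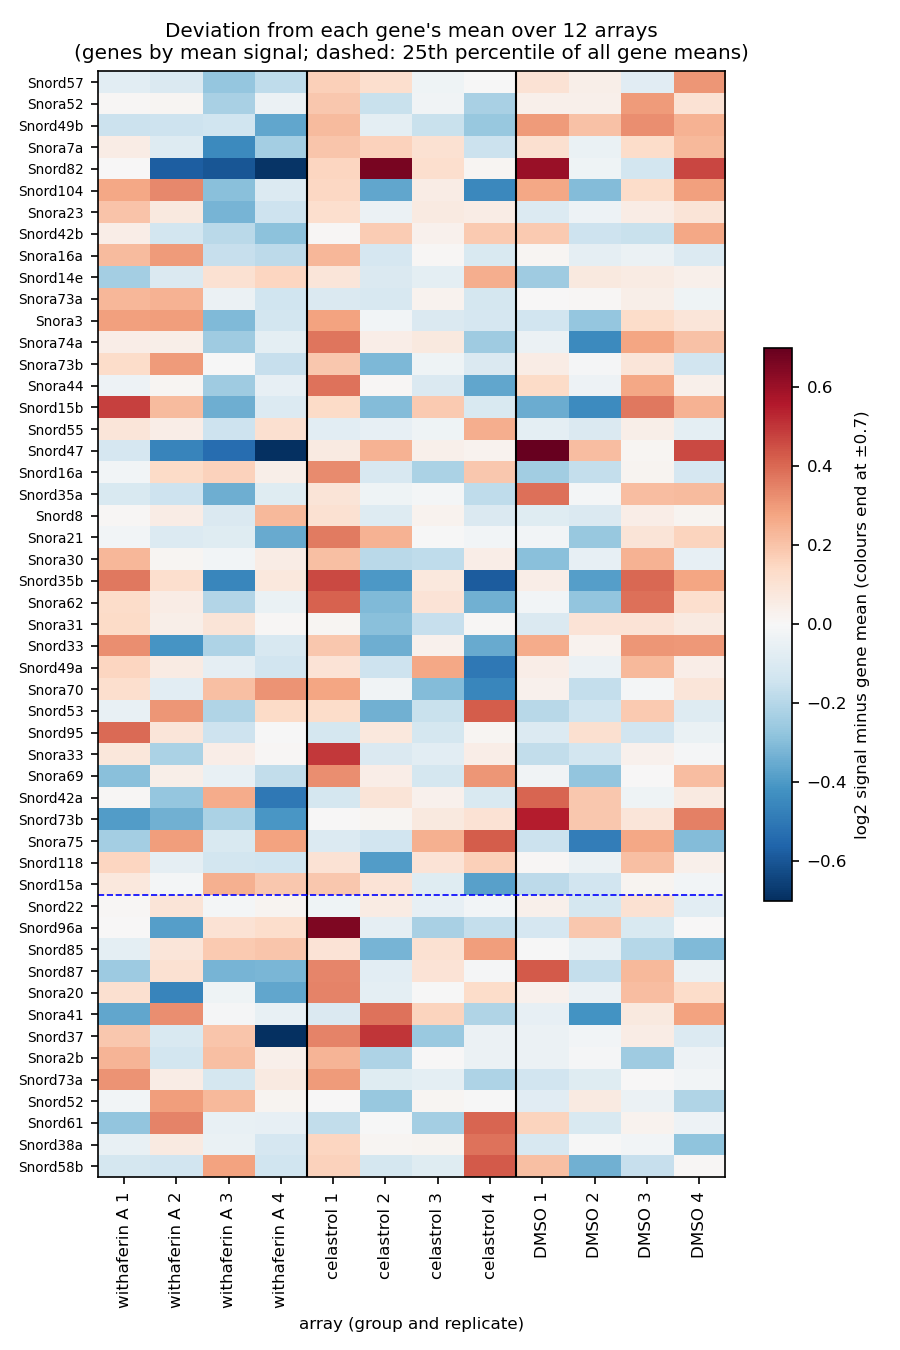
Deviation of each small nucleolar RNA gene from its own mean over the 12 arrays, in log2 units (red above, blue below), for each withaferin A, celastrol and DMSO array. On celastrol 1, 43 of the 51 genes lie above their mean, and on withaferin A 3 and DMSO 2, 13 of them do.

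Host genes with a single-symbol probe set could be set beside 27 of the small nucleolar RNA genes, in 23 hosts. Small nucleolar RNA and host had the same sign in 14 of 27 pairs for withaferin A minus DMSO, 16 of 27 for withaferin A minus celastrol and 15 of 27 for celastrol minus DMSO. Hosts were lower on average with withaferin A than with DMSO in 20 of 23 cases, beside 42.8% of all genes, with a median difference of -0.09. In 3 of 23 hosts, Rps12 at -0.16, Tpt1 at -0.12 and Eef1b2, all withaferin A arrays lay below all DMSO arrays, beside 3.57% of all genes, while the genes they hold, Snora33 at 0.05, Snora31 at 0.03 and Snora41, were on average higher. After celastrol 16 of 23 hosts were lower on average, beside 51.9% of all genes, the median was -0.03, and 0 of 23 passed at an adjusted p under 0.05, beside 0.301% of all genes, and 1 at an unadjusted p under 0.05, beside 9.4% (limma), the lowest adjusted p being 0.387 for Wdr43. The host of Snord47, Gas5, had an adjusted p of 0.905 after celastrol, and the host of Snord73b, Rps3a1, one of 0.98.

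**Figure D5:**
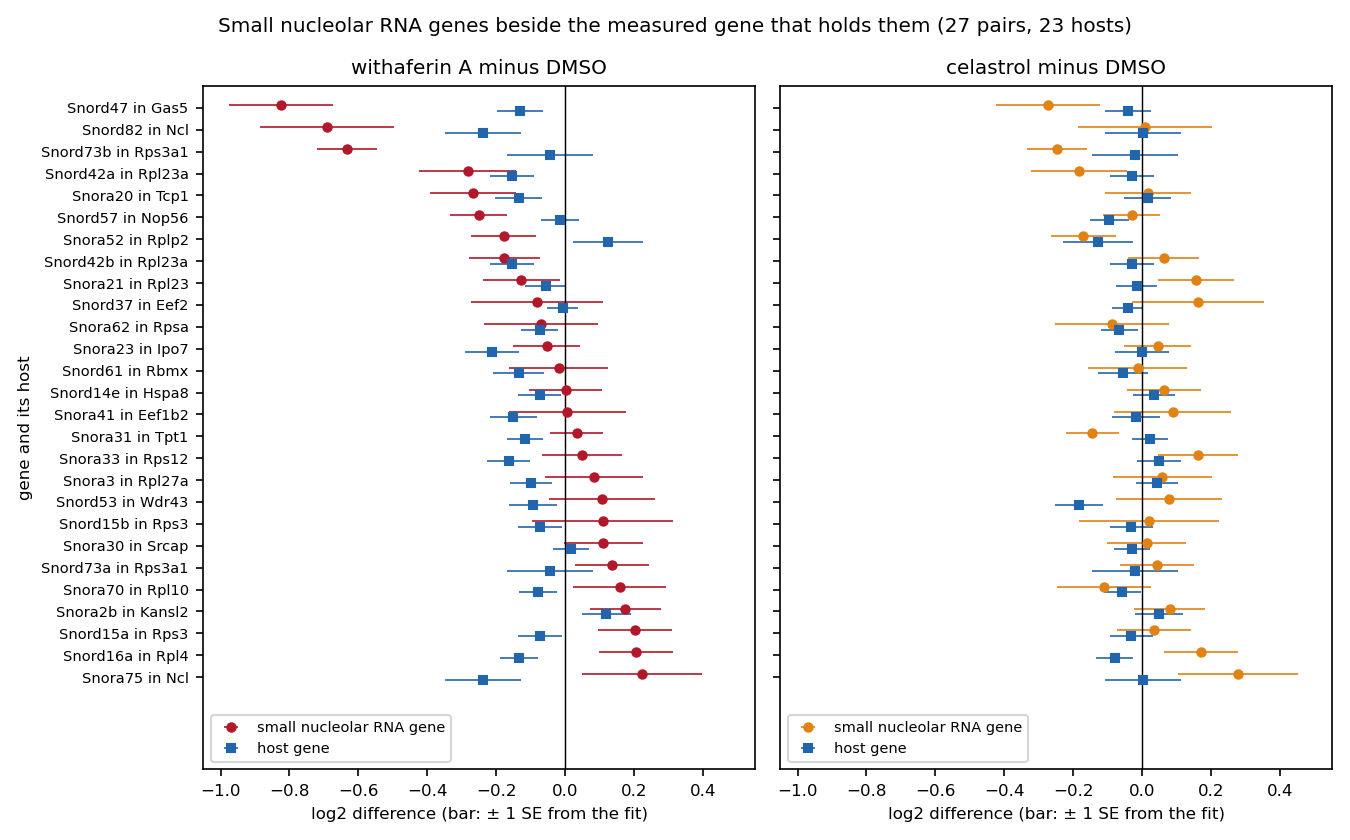
Log2 difference of 27 small nucleolar RNA genes and of the measured genes that hold them, with bars of 1 SE from the fit, for withaferin A minus DMSO and celastrol minus DMSO. Snord47, Snord82 and Snord73b lie to the left of Gas5, Ncl and Rps3a1 for withaferin A, where Gas5 differs by -0.13 and Rps3a1 by -0.04.

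All 21 listed proteins of the small nucleolar RNA particles and their assembly were measured. After celastrol 0 of 21 passed at an adjusted p under 0.05, beside 0.301% of all genes, and 0 at an unadjusted p under 0.05, beside 9.4% (limma). The median difference was -0.02, and the smallest adjusted p was 0.653, for Nop56 at -0.10 ± 0.06. Nop10, a subunit of the H/ACA particle, differed by -0.13 ± 0.08 after celastrol (adjusted p = 0.679, limma), and Nufip1, an assembly factor of the C/D particle, by -0.13 (adjusted p = 0.661). After withaferin A, with values given as a description, the median was -0.03, with 13 of 21 lower and 8 higher on average, beside 42.8% of all genes lower. At the low end Naf1, an assembly factor of the H/ACA particle, was at -0.31 ± 0.11, Nop10 at -0.26 ± 0.08 and Nop58, a core protein of the C/D particle, at -0.22 ± 0.09 for withaferin A minus DMSO. At the high end Gar1, a subunit of the H/ACA particle, was at 0.15 ± 0.08, Shq1 at 0.14 and Znhit3 at 0.13. The enzymes fibrillarin (Fbl) and dyskerin (Dkc1) differed by 0.03 and -0.08. Of 11 listed long non-coding hosts 8 were measured. The list took only Snhg genes that had a value, so hosts without one, such as Snhg1, Snhg3 and Snhg12, are not among the 11. Of the 8, 0 passed after celastrol at an adjusted p under 0.05, beside 0.301% of all genes, or at an unadjusted one, beside 9.4%. Snhg15 was at -0.19 ± 0.11 (adjusted p = 0.667, limma) and Snhg16 at 0.27 ± 0.16 (adjusted p = 0.668, limma).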

How the data were processed

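The authors deposited log2 signals of 35556 probe sets on 12 arrays, processed with RMA per the submitters' processing notes; the RMA version and genome build are not given in the sources used here. RMA corrects background and brings the arrays to a common scale, so a shift common to all genes cannot be seen. The labels describe Trizol extraction with a column clean-up; how much short RNA was kept was not measured. The number of arrays limits the precision. A probe table gave 1 symbol for 21789 probe sets, several for 1621 and none for 12146. A RefSeq gene table held the gene identifiers of 21698 of these 21789, with 0 differing symbols. The probe set of highest mean was used per gene, giving 19938 genes.

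Group means were fitted with limma 3.58.1 in R 4.3.3 (lmFit and eBayes, all 12 arrays, no filter on dim genes, residual degrees of freedom 9, prior 4.18). Differences carry the SE of this fit with n = 4 arrays per group, and p-values were adjusted by Benjamini-Hochberg across the 19938 genes, with a threshold of 0.05. The labels give no cage or litter for the biological replicates. The steps were tested on simulated data. Plots were drawn with matplotlib 3.10.9.

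The genes, lists and tests were chosen with earlier results of these data known. Named genes were Snord73b, the 4 highest and 4 lowest differences of each comparison above the 25th percentile of gene means, the 5 highest signals of each class, the genes next to that percentile, their hosts, and up to 4 list members by p. Any other was named after its values were seen. Genes Snord64, Snord107, Snord113, Snord114 and Snord115 were not analysed here. The host is the shortest gene of the RefSeq table (GRCm38.p6) that contains the small nucleolar RNA gene. The alternatives were filters on dim genes, every probe set, renewed normalization, centring, a trended robust prior, array weights, fits to 8 arrays, a replicate block, a threshold of 0.10, and leaving out arrays. Replicate numbers were not used as pairs in the main fit. Deviations of the 12 same-numbered pairs correlated at -0.255 to 0.0965, which cannot show whether samples were paired by number.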

Additional observations from a re-analysis of the deposited data

Results flagged for a closer look

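Dixon's ratio, the gap of an extreme array to its neighbour divided by the range of the group, was computed for each gene in each group of 4 arrays, 153 groups in all. It exceeded Dixon's 95% critical value for 4 samples in 10 groups, where chance flags about 1 in 20 groups. Among genes with a low withaferin A mean, Snord49b had withaferin A 4 at 10.63 against 10.84 to 10.86 on the others (ratio 0.947), and Snord82 had withaferin A 1 at 10.44 against 9.75 to 9.86 (ratio 0.842). Snord58b had withaferin A 3 at 4.05 against 3.63 to 3.65 (ratio 0.967).

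On celastrol arrays, Snord118 had celastrol 2 at 5.74 against 6.23 to 6.30 (ratio 0.870) and Snord52 had celastrol 2 at 4.37 against 4.64 to 4.66 (ratio 0.931). Snora73a had celastrol 3 at 9.03 against 8.88 to 8.90 (ratio 0.865), and Snord55 had celastrol 4 at 8.46 against 8.13 to 8.17 (ratio 0.868).

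On DMSO arrays, Snord14e had DMSO 1 at 8.83 against 9.12 to 9.15 (ratio 0.901) and Snora31 had DMSO 1 at 6.78 against 6.95 to 6.98 (ratio 0.849). Snora2b had DMSO 3 at 4.66 against 4.87 to 4.90 (ratio 0.882).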

How the results depend on the processing

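The count of small nucleolar RNA genes passing an adjusted p under 0.05 (limma) was 0 in each comparison. Leaving out each array in turn, it ran from 0 to 1 for celastrol versus DMSO (Snord49b, without celastrol replicate 1), from 0 to 2 for withaferin A versus DMSO (2 without DMSO replicate 3, 1 without withaferin A replicate 3) and stayed at 0 for withaferin A versus celastrol. In withaferin A versus DMSO it was 1 with an intensity trend and robust prior, 2 with array weights and 1 at a threshold of 0.10. The count over all genes in that comparison ran from 0 to 23 without single arrays and from 0 to 30 under the other alternatives. Nothing is read from the withaferin A counts, since the genes were chosen with those values known. With every probe set, 24 of Snord116 included, the median was -0.12 for withaferin A versus celastrol (-0.0072 over single genes), -0.10 for withaferin A versus DMSO (-0.02) and 0.07 for celastrol versus DMSO (0.01). Medians without single arrays ran from -0.04 to 0.04, -0.08 to 0.04 and -0.06 to 0.03 for celastrol versus DMSO, withaferin A versus DMSO and withaferin A versus celastrol, so their sign rests on single arrays. The sign of single differences changed under at least 1 alternative for 28, 18 and 25 of the 51 in the same order. In no comparison did it change for Snord73b, Snord47, Snord49b and Snord35a. The same held for other genes, among them Snora21, Snora69 and Snora70, of which Snora70 was on average higher with withaferin A. With the replicate block 0 of 51 passed in each comparison and the medians were as without it. Over all genes 60, 0 and 11 passed, against 31, 0 and 0 with the block, 3 to 137, 0 to 23 and 0 to 34 without single arrays, and 5 to 167, 0 to 30 and 0 to 47 under the other alternatives. The causes were not tested. The 13 genes below the 25th percentile have the least signal over background.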

Other observations

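Probe sets with several symbols were outside the counts above, and their values are given with no test. Snord116 is a cluster of C/D box genes, repeated in tandem and expressed from the paternal chromosome in neurons, whose loss in humans contributes to Prader-Willi syndrome, a disorder with overeating. It had 24 probe sets, which held 7 distinct sets of values, so they are not independent. Their means lay between 12.11 and 12.57. The median over the 24 was 12.39, 12.26, 12.24 and 11.90 with withaferin A, 12.73, 13.01, 12.61 and 12.78 with celastrol and 12.87, 12.56, 12.30 and 12.77 with DMSO. The withaferin A arrays lay below all celastrol arrays and overlapped the DMSO arrays through DMSO 3. The log2 difference had a median of -0.43 (-0.51 to -0.42) for withaferin A minus DMSO, -0.58 for withaferin A minus celastrol and 0.16 for celastrol minus DMSO.

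Rpl13a holds other small nucleolar RNAs whose probe sets also name the host. Snord32a with Rpl13a differed by -0.66 for withaferin A minus DMSO and by -0.31 for celastrol minus DMSO, and Snord34 with Rpl13a by -0.56 and -0.16. Snord35a and Snord33 from the same host were at -0.37 and -0.33 for withaferin A minus DMSO. Snord68 with Rpl13 differed by -0.48 and -0.26 in the same order, and Snora34 with Mir1291 by -0.39 for withaferin A minus DMSO. Snora36b with Mir664 differed by 0.40 for withaferin A minus DMSO, at a mean of 3.69, below the 25th percentile of gene means. Snora43 with Snhg7, at a mean of 7.62, and Snord14a with Rps13, at 6.61, each differed by 0.21 for withaferin A minus DMSO. Of the 17 probe sets outside Snord116, 7 were lower with withaferin A than with DMSO and 10 were higher, beside 42.8% of all single-symbol genes lower. Some of the 17 hold identical values.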
